A study of Mus musculus with 6 samples.

Results

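The brush border is the dense carpet of microvilli on the apical face of intestinal absorptive cells. The 9 genes described here encode its enzymes and structural proteins: Alpi, Mep1a, Mep1b, Dpp4, Anpep, Vil1, Cdhr2, Cdhr5 and Tmigd1. They were taken by symbol from 36977 genes tabulated for bulk RNA-seq of mouse colonic tissue, in which each symbol had 1 row. The groups labelled DSS and DCA (here DSS+DCA) and DSS held 3 libraries each, numbered 1, 2 and 4, all from wild-type mice. DSS is dextran sulfate sodium, a polymer that injures the colonic epithelium, and 2% DSS over 7 days is stated for all 6 samples. DCA is deoxycholic acid, a bile acid made by gut bacteria, which was given by enema. The protocol is worded alike for both groups, and what the mice labelled DSS received in place of DCA is not stated. Neither are the age of the mice, their number or any pooling, so p-values rest on how far these libraries differ from each other, which may partly be technical. Values of single libraries are given in the order of replicates 1, 2 and 4.

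Microvilli are held up by bundles of actin filaments, which villin and other bundling proteins join together. Protocadherins at the microvillus tips link each microvillus to its neighbours and so pack them into a regular array. Enzymes anchored in the apical membrane cut peptides and remove phosphate groups from molecules in the lumen, bacterial lipopolysaccharide among them. Many of these proteins are made in larger amounts as absorptive cells mature and move up from the crypt. Their transcripts were not taken here as a measure of the number of mature colonocytes.

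The promoter windows of 5 genes are printed because the first 4 come from genes whose levels did not overlap between the groups, while Mep1a had the largest SD relative to its mean among DSS+DCA libraries. They are RefSeq sequences of build GRCm38.p6, from 250 bases before to 50 after the transcription start, 5′ to 3′ on the strand of the gene. Capitals mark matches, on either strand, to CAAAGNNCA or its first part CAAAG (letters bound by the nuclear receptor HNF4), CATAAA (bound by CDX homeobox factors), GTTAAT (part of an HNF1 site) and the TATA box TATAAA. The windows lie at chr1:87101557-87101856 on the minus strand (Alpi), chr1:74409134-74409433 on the plus strand (Vil1) and chr13:54701213-54701512 on the plus strand (Cdhr2). Those of Cdhr5 and Mep1a lie at chr7:141276737-141277036 and chr17:43502724-43503023, both on the minus strand.
Alpi: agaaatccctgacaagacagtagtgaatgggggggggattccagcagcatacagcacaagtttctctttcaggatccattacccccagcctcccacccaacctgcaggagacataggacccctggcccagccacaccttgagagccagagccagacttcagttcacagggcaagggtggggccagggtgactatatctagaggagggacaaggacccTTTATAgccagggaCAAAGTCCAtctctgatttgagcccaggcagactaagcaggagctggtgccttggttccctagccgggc
Vil1: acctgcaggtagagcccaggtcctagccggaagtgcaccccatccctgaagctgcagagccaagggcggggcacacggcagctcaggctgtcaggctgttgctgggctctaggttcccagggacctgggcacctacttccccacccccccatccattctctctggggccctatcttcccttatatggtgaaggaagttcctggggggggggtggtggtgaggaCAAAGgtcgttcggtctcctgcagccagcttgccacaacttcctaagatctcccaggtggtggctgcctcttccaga
Cdhr2: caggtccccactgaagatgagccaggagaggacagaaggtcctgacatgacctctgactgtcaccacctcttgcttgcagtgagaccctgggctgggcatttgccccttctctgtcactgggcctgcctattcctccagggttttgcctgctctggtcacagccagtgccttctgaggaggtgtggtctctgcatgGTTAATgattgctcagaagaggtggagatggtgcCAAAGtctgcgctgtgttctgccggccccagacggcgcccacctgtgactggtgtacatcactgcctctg
Cdhr5: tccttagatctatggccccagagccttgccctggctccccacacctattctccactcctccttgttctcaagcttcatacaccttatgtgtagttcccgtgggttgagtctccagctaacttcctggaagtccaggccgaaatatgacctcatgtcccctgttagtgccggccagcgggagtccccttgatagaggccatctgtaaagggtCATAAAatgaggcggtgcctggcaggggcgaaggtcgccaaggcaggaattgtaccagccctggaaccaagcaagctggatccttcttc
Mep1a: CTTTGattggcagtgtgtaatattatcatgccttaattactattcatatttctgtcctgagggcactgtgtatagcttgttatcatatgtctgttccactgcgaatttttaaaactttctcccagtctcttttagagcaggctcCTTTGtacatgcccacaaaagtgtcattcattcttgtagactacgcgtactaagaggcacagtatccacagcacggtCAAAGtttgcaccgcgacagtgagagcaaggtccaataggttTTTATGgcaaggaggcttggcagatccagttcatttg

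The genes themselves were placed through their identifiers in GENCODE M21 on GRCm38, since the authors' build is not stated in the sources used here. Alpi lies on chromosome 1 from 87098002 to 87101606 (minus strand), Vil1 on chromosome 1 from 74409376 to 74435559 (plus), and Mep1a on chromosome 17 from 43474324 to 43502812 (minus). Mep1b lies on chromosome 18 from 21061923 to 21100199 (plus), Dpp4 on chromosome 2 from 62330073 to 62412231 (minus), and Tmigd1 on chromosome 11 from 76902159 to 76916587 (plus). Anpep and Cdhr5 share chromosome 7, at 79821803 to 79861059 and at 141269083 to 141276786 (both minus), and Cdhr2 lies on chromosome 13 from 54701461 to 54736662 (plus). All are protein-coding.

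Motifs were read in the windows of 8 of the 9 genes. The start used for the Anpep window lay 12849 bases from the start of that gene as placed above. Tmigd1 had 2 windows, of which the one nearest its gene start was read. CAAAG occurred in 6 of the 8 genes read, against 53.9% of all 32851 RefSeq windows of this length. In Alpi, Cdhr2, Vil1 and Mep1a it stood on the strand of the gene and began 19, 20, 27 and 29 bases before the start. That placement, looked at only after the sequences had been seen, was found in 1.37% of all windows. The longer CAAAGNNCA, which contains CAAAG, occurred in Alpi alone of the 8 and in 6.36% of all windows. CATAAA occurred in Cdhr5, Mep1a and Tmigd1 (11.9% of all windows), GTTAAT in Cdhr2 (7.1%) and TATAAA in Alpi, Dpp4 and Tmigd1 (13.6%). Counted from the start, TATAAA lay at -29 to -24 in Tmigd1 and at -227 to -222 in Dpp4, on the strand of the gene. In Alpi it lay at -33 to -28 on the opposite strand. These are letter matches, which do not show that a factor binds there.

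The libraries differed within groups in ways that bear on the values below. Mitochondrial transcripts held 30.5% of the summed FPKM in DSS+DCA replicate 1 and 47.6% and 46.7% in DSS+DCA replicates 2 and 4, against 29.4% to 31.4% in DSS libraries. Nuclear protein-coding genes held 46.2% in DSS+DCA replicate 1 and 21.0% and 24.3% in DSS+DCA replicates 2 and 4, against 45.0% to 46.2% in DSS libraries. Rescaled to these genes, the median log2 change of the 9 genes was -0.40, against -0.80 as deposited. FPKM is a fragment count scaled to the length of the transcript and the size of the library. DSS replicate 4 lay close to an average of the other DSS libraries: over 1118 abundant genes its median absolute log2 deviation from their weighted mean was 0.0481, where those libraries differed from each other by 0.203. Among 8 of the 9 brush border genes its value fell between those of DSS replicates 1 and 2, and for all 9 it was 0.935 to 1.08 times their mean. If it is not an independent library, the SD and n of DSS and the p-values below are too favourable. Without it 0 of the 9 genes were called and their median log2 change was -0.81. Groups that do not overlap stay apart when a library is left out, so the separation of 5 genes given below is no check on this. The colonocyte marker Car1, a carbonic anhydrase abundant in the colon, measured 2561 to 5503 FPKM in DSS+DCA and 2532 to 6335 FPKM in DSS, so cells of the colon were present. Car1 was 1 of 4 tested colon region markers, of which 3 had lower and 1 higher fitted values. Hoxa13 measured 0.201 to 1.07 FPKM in DSS+DCA and 9.51 to 18.9 FPKM in DSS. Hoxd10 went the other way, with 0.928 to 5.08 FPKM in DSS+DCA and 0 to 0.378 FPKM in DSS. Whether position along the colon had a part in the brush border values was not tested. The samples are also labelled as intestinal epithelial cells, but smooth muscle, fat, nerve and lymphocyte markers were measured too, so the libraries held more than epithelium.

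How deoxycholic acid altered the injured colon is the question the groups address. All 9 brush border genes had lower fitted values in DSS+DCA than in DSS, and in 5 of them every DSS+DCA library lay below every DSS library. The 5 were Alpi, Mep1b, Vil1, Cdhr2 and Cdhr5. Among the 14611 genes tested, 17.8% had non-overlapping groups in that direction, and 60.5% had lower fitted values. The median log2 change of the 9 genes was -0.80, where the median of all tested genes was -0.09. The direction was not kept by every gene under other scalings. Dpp4 turned higher after rescaling to nuclear protein-coding genes or to epithelial markers, Cdhr2 with epithelial scaling, and Cdhr5 with epithelial scaling and quantile normalization.

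Only Alpi passed the test over all genes, with limma on log2(FPKM + 1) and a Benjamini-Hochberg adjusted p under 0.05. Over all genes 82 passed (0.561% of those tested), of which 63 were lower (0.431%) and 19 higher (0.13%). Rescaled to nuclear protein-coding genes the split was 45 lower and 78 higher, and with epithelial scaling 103 lower and 4442 higher. Unadjusted p-values were under 0.05 for 5 of the 9, and for 12.4% of all tested genes in the lower direction.

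**Figure D1:**
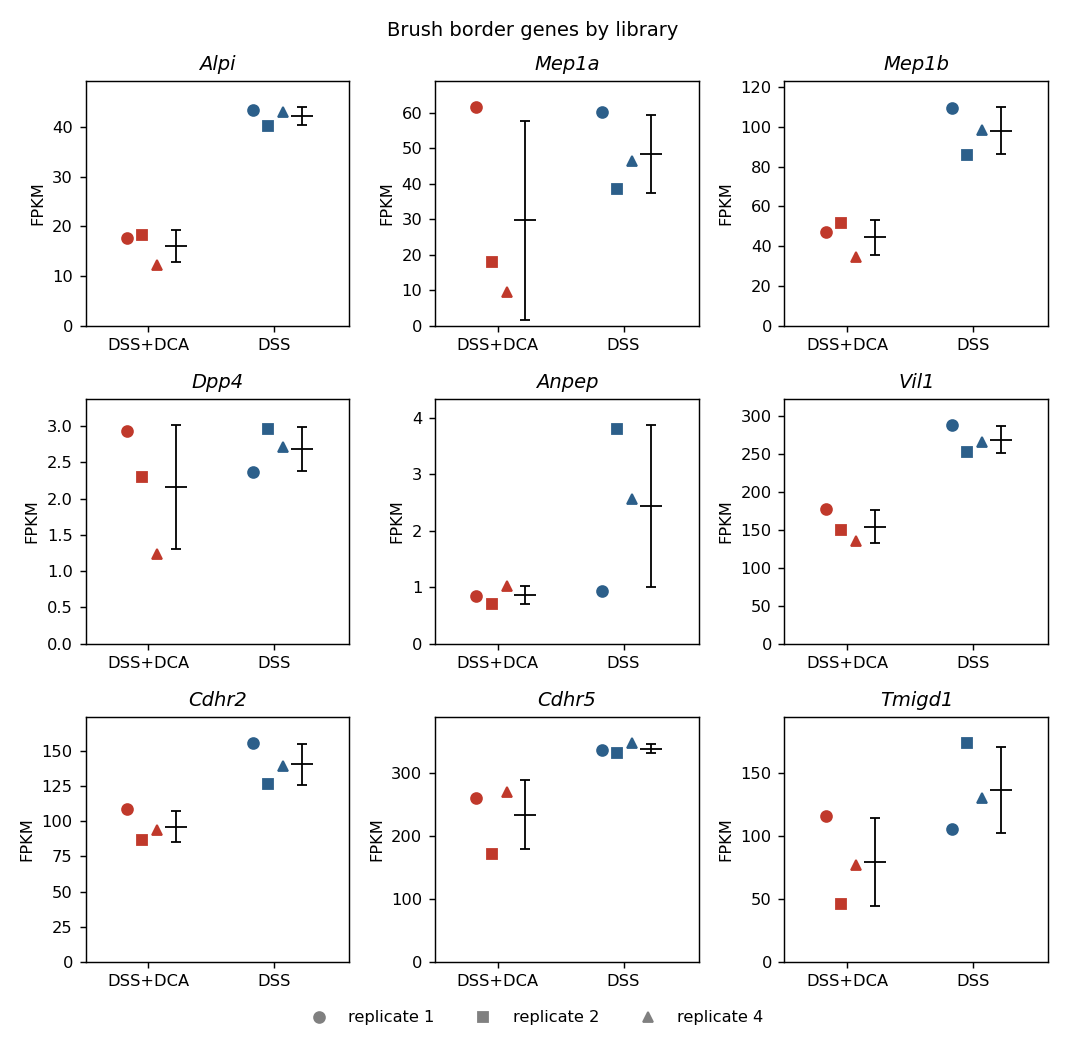
FPKM of each brush border gene in the 3 DSS+DCA (red, left) and 3 DSS libraries (blue, right), with the mean and SD in black and symbols for the replicate number. The groups stand apart in Alpi, Mep1b, Vil1, Cdhr2 and Cdhr5, whereas Mep1a in DSS+DCA replicate 1 (61.6 FPKM) lies above all DSS libraries.

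Alpi, the intestinal alkaline phosphatase, removes phosphate from lipopolysaccharide and from nucleotides at the cell surface. It measured 17.7, 18.2 and 12.2 FPKM in the DSS+DCA libraries and 43.5, 40.1 and 42.9 FPKM in the DSS libraries. All 3 DSS+DCA libraries were low and the DSS libraries differed little among themselves. Mean levels were 16.0 ± 3.29 FPKM in DSS+DCA and 42.2 ± 1.79 FPKM in DSS (SD, n = 3 each), which was 2.63-fold lower. The log2 change was -1.36 ± 0.20 (SE, adjusted p = 0.0486, limma). The call did not hold without DSS replicate 4 (adjusted p = 0.242), DSS replicate 1 (0.226), DSS replicate 2 (0.169) or DSS+DCA replicate 4 (0.107), in limma fits of the other 5 libraries. In the authors' deposited table Alpi had a q-value of 0.000414 and was marked significant, as was Mep1b with a q-value of 0.0165. That table marked 3.17% of its 36977 genes as significant, and 0.99% as significant and lower, each with a q-value under 0.05 and a fold of at least 2. Vil1 had a q-value of 0.0470 in the authors' deposited table but too small a fold to be marked.

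The other alkaline phosphatases analysed here, Alpl and Alppl2, were near the floor of the table. The tissue-nonspecific gene Alpl measured 0.33 to 0.462 FPKM in DSS+DCA and 0.136 to 0.316 FPKM in DSS, below the filter of a mean of 0.5 FPKM. Alppl2 also lay below the filter, with at most 0.168 FPKM in DSS+DCA. 

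Mep1a and Mep1b encode the α and β subunits of meprin, a zinc metalloprotease of the apical membrane. Meprin α can be released into the lumen, and meprin β can cut mucin 2 in the mouse small intestine. Mep1b measured 47.0, 51.6 and 34.7 FPKM in the DSS+DCA libraries and 109.7, 86.1 and 98.7 FPKM in the DSS libraries. The groups were apart, and the means of 44.5 ± 8.71 in DSS+DCA and 98.1 ± 11.8 FPKM in DSS (SD, n = 3 each) differed 2.21-fold. Its log2 change of -1.14 ± 0.22 (SE) missed the threshold (adjusted p = 0.0865, limma).

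Mep1a had the largest SD relative to its mean in DSS+DCA of the 9 genes (94.4%). It measured 61.6, 17.9 and 9.43 FPKM in the DSS+DCA libraries and 60.2, 38.6 and 46.3 FPKM in the DSS libraries. The groups overlapped, since DSS+DCA replicate 1 held the highest value of all 6 libraries and DSS+DCA replicate 4 the lowest. The log2 change was -1.07 ± 0.61 (SE, adjusted p = 0.414, limma), with a 95% interval from -2.51 to 0.37. The ratio of Mep1a to Mep1b was 1.31, 0.347 and 0.271 in the DSS+DCA libraries and 0.549, 0.448 and 0.47 in the DSS libraries. The ratio was thus above every DSS library in one DSS+DCA library and below every one in both others. Without DSS+DCA replicate 1, both meprin genes were called lower (limma, adjusted p = 0.0375 for Mep1a and 0.0373 for Mep1b), as were Vil1 (0.0201), Cdhr2 (0.0497) and Alpi (0.0201). In that fit of 5 libraries 1321 of 14342 tested genes were called, 1176 lower and 145 higher, against 82 with all 6. In the DSS+DCA libraries left in, nuclear protein-coding genes held 21.0% and 24.3% of the summed FPKM, against 45.0% to 46.2% in DSS libraries. The part of that share in these calls was not tested.

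Dpp4 and Anpep encode peptidases that trim peptides from their amino end, and both were low in this tissue. Dpp4, a dipeptidyl peptidase that inactivates the hormone GLP-1, measured 2.93, 2.29 and 1.24 FPKM in the DSS+DCA libraries and 2.37, 2.96 and 2.72 FPKM in the DSS libraries. The groups overlapped, with a fitted difference of -0.26 ± 0.23 log2 units (SE, adjusted p = 0.605, limma) and a 95% interval from -0.81 to 0.30. The interval spans 0, so neither direction was told apart for Dpp4.

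Anpep, the aminopeptidase N, measured 0.843, 0.701 and 1.03 FPKM in the DSS+DCA libraries and 0.939, 3.80 and 2.56 FPKM in the DSS libraries. Levels were even in DSS+DCA, while DSS replicate 1 lay below DSS+DCA replicate 4 and the other DSS libraries lay above. The log2 change was -0.79 ± 0.33 (SE, adjusted p = 0.293, limma). At about 1 FPKM the added pseudocount of 1 compresses this value, and with a pseudocount of 0.1 it was -1.22. The antisense gene Gm13561 shares 232 exonic bases with Dpp4 but measured at most 0.133 FPKM. Whether the counting used strand is not stated.

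**Figure D2:**
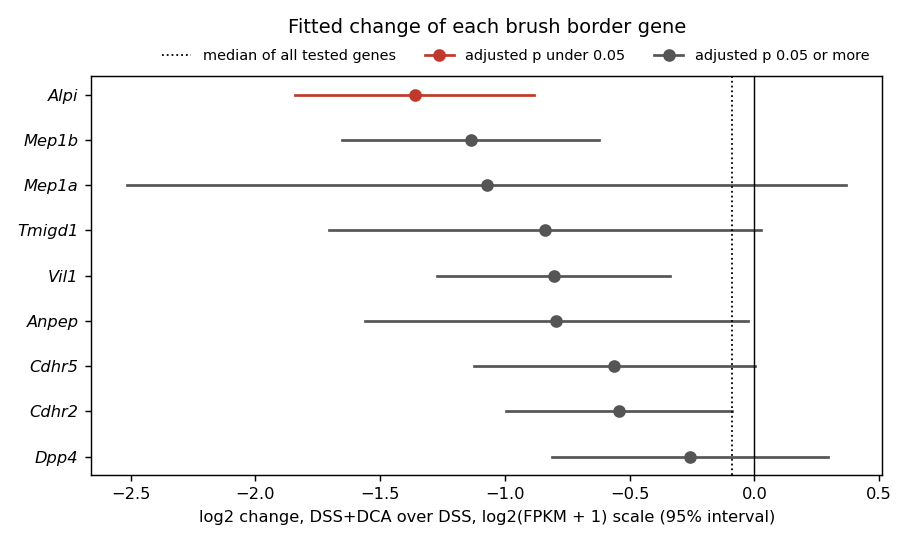
Fitted log2 change of each brush border gene, DSS+DCA over DSS, with its 95% interval, on the log2(FPKM + 1) scale. Alpi (red) is the 1 gene past an adjusted p of 0.05, and the intervals of Mep1a, Dpp4, Tmigd1 and Cdhr5 reach across 0.

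Among the structural proteins, Vil1 encodes villin, which bundles and severs actin filaments in the microvillus core. It measured 178.0, 150.6 and 135.0 FPKM in the DSS+DCA libraries and 288.3, 252.7 and 266.6 FPKM in the DSS libraries. No DSS+DCA library reached the DSS range, and the means of 154.5 ± 21.7 in DSS+DCA and 269.2 ± 17.9 FPKM in DSS (SD, n = 3 each) differed 1.74-fold. The log2 change of -0.80 ± 0.20 (SE) did not pass (adjusted p = 0.139, limma). Usp37, on the opposite strand, shares 49 exonic bases with Vil1 and measured 2.28 to 3.78 FPKM in DSS+DCA and 4.39 to 4.68 FPKM in DSS.

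Cdhr2 and Cdhr5 encode the protocadherins that bind each other between the tips of neighbouring microvilli. Cdhr2 measured 108.7, 86.5 and 93.6 FPKM in the DSS+DCA libraries and 155.5, 126.7 and 139.3 FPKM in the DSS libraries. Cdhr5, the most abundant of the 9 genes in both groups, measured 260.0, 170.6 and 269.9 FPKM in the DSS+DCA libraries and 336.3, 331.8 and 346.4 FPKM in the DSS libraries. Both separated the groups, Cdhr5 with tight DSS values and a wide DSS+DCA range. Their log2 changes were alike in size, at -0.54 ± 0.19 for Cdhr2 and -0.56 ± 0.24 for Cdhr5 (SE, adjusted p = 0.245 and 0.300, limma). The ratio of Cdhr5 to Cdhr2 averaged 2.42 ± 0.455 in DSS+DCA and 2.42 ± 0.235 in DSS (SD, n = 3 each), and its ranges overlapped.

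Tmigd1 encodes a small membrane protein with immunoglobulin-like domains that acts in cell adhesion and in brush border formation. It measured 115.7, 46.0 and 76.7 FPKM in the DSS+DCA libraries and 105.3, 173.5 and 130.4 FPKM in the DSS libraries. DSS+DCA replicate 1 exceeded DSS replicate 1, so the groups overlapped. The log2 change was -0.84 ± 0.37 (SE, adjusted p = 0.311, limma), with a 95% interval from -1.70 to 0.03.

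FPKM is scaled to length, so the genes could be ranked by level. In DSS+DCA the order of mean FPKM was Cdhr5, Vil1, Cdhr2, Tmigd1, Mep1b, Mep1a, Alpi, Dpp4 and Anpep, and the same order held in DSS. Neighbours with overlapping ranges in DSS+DCA were Cdhr5 and Vil1, Cdhr2 and Tmigd1, Tmigd1 and Mep1b, Mep1b and Mep1a, and Mep1a and Alpi. In DSS they were Cdhr2 and Tmigd1, Tmigd1 and Mep1b, Mep1a and Alpi, and Dpp4 and Anpep. The 9 genes summed to 792, 544 and 634 FPKM in the DSS+DCA libraries and 1102, 1056 and 1076 FPKM in the DSS libraries. Each DSS+DCA sum was below each DSS sum. Within the sum Alpi took 2.23%, 3.34% and 1.93% in the DSS+DCA libraries and 3.94%, 3.80% and 3.99% in the DSS libraries, again without overlap.

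In bulk tissue, fewer epithelial cells and less transcript per cell cannot be told apart, so the values of 15 epithelial markers are given beside those of the brush border genes. Of these 15, 14 had lower fitted values and 0 passed the test, and their median log2 change was -0.80, close to that of the 9 genes. Their mean log2(FPKM + 1) was 7.39, 6.69 and 6.73 in the DSS+DCA libraries and 7.71, 7.49 and 7.61 in the DSS libraries. The summed level of the list was 3634 to 6216 FPKM in DSS+DCA and 7408 to 8965 FPKM in DSS. The mean of the 9 genes minus the mean of the markers was -2.08, -1.88 and -2.01 log2 units in the DSS+DCA libraries and -1.98, -1.69 and -1.83 in the DSS libraries, and the ranges overlapped. With epithelial scaling, which sets the marker mean equal in all libraries, the median of the 9 genes was -0.14 and 6 of the 9 had lower fitted values. Alpi was the 1 called there, with a log2 change of -0.70 and an adjusted p = 0.0446 (limma). In that fit 4545 of 14611 tested genes were called, 4442 of them higher. The unadjusted p of Alpi was 0.0124 there, against 0.000267 as reported (limma). Over all 17 alternatives its adjusted p ranged from 0.000677 to 0.242 (limma).

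**Figure D3:**
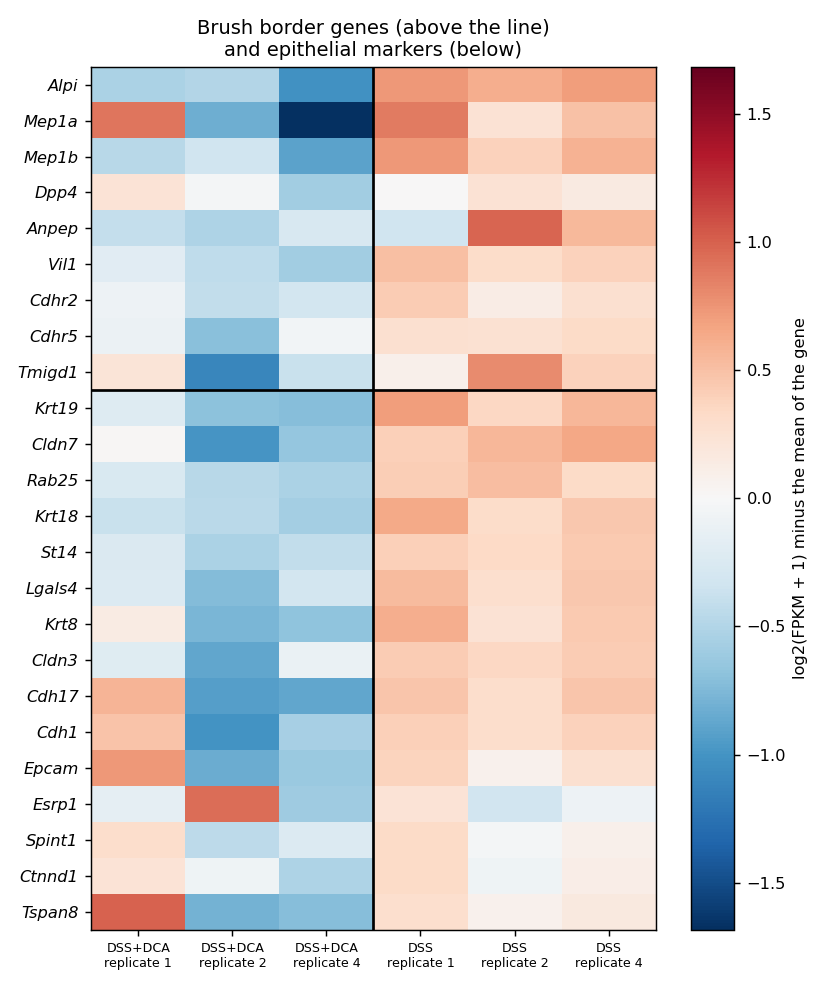
Log2(FPKM + 1) of the 9 brush border genes (above the line) and 15 epithelial markers (below), each minus its mean over the 6 libraries, with the DSS+DCA libraries left of the DSS libraries. Most rows are lower on the left, while Epcam, Cdh17, Cdh1, Tspan8 and Mep1a are higher in DSS+DCA replicate 1 than in any DSS library.

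Single markers gave different yardsticks. The epithelial adhesion molecule Epcam measured 621.7, 209.7 and 241.4 FPKM in the DSS+DCA libraries and 483.9, 394.1 and 450.5 FPKM in the DSS libraries, so DSS+DCA held both its extremes. A ratio to Epcam was added after the values had been seen. Per 100 FPKM of Epcam, Alpi came to 2.84, 8.67 and 5.07 FPKM in the DSS+DCA libraries and 8.98, 10.2 and 9.53 FPKM in the DSS libraries. Alpi was the 1 gene of the 9 whose DSS+DCA values per Epcam were all below DSS, as were 2.64% of all tested genes. Cdhr5 per 100 FPKM of Epcam averaged 78.3 ± 35.1 in DSS+DCA and 76.9 ± 7.35 in DSS (SD, n = 3 each), and Cdhr2 averaged 32.5 ± 13.1 in DSS+DCA and 31.7 ± 0.702 in DSS. Those pairs of means lay well within the spread of the DSS+DCA libraries.

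All 7 colonocyte markers had lower fitted values, 5 of them without overlap and none called, with a median log2 change of -1.37. They ranged from Aqp8, a water channel, at -2.76 to Car1 at -0.09, and their summed level was 3562 to 7905 FPKM in DSS+DCA and 7196 to 10260 FPKM in DSS. The 7 goblet cell markers summed to 880 to 2442 FPKM in DSS+DCA and to 3915 to 5052 FPKM in DSS. The 6 smooth muscle markers summed to 81.8 to 1404 FPKM in DSS+DCA and to 30.8 to 635 FPKM in DSS, and the 4 fat cell markers to 8.11 to 145 FPKM in DSS+DCA and to 1.82 to 2.33 FPKM in DSS. The 6 lymphocyte markers summed to 3.64 to 23.6 FPKM in DSS+DCA and to 2.80 to 2.99 FPKM in DSS. The fat cell marker Adipoq measured 0.129 to 6.41 FPKM in DSS+DCA and was listed at 0 in all 3 DSS libraries. All 7 goblet markers had lower fitted values and 1 was called, all 6 smooth muscle markers had higher ones, as did the 3 fat cell and 3 lymphocyte markers that were tested, and none of these 12 was called. The part that these cells, or the mitochondrial share, had in the brush border values was not tested.

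Other genes of the brush border are described by list, without a test between lists. In a list of 18 other hydrolases 10 were tested, 6 with lower and 4 with higher fitted values, none called, and a median log2 change of -0.06. That is near the -0.09 of all genes. Ggt1, which opens the breakdown of glutathione, measured 11.2, 10.6 and 9.55 FPKM in the DSS+DCA libraries and 3.38, 8.13 and 6.37 FPKM in the DSS libraries (adjusted p = 0.255, limma). Naaladl1, a peptidase, had a log2 change of -0.49 (adjusted p = 0.465, limma). Xpnpep2, an aminopeptidase for proline peptides, had a log2 change of 0.30 (adjusted p = 0.475, limma). Among the disaccharidases, Mgam measured 3.75, 3.53 and 2.43 FPKM in the DSS+DCA libraries and 2.90, 2.67 and 2.91 FPKM in the DSS libraries, with overlap. Sis measured 0.218 to 1.14 FPKM in DSS+DCA and 0.0452 to 0.305 FPKM in DSS, and Lct was the lowest, at 0 to 0.0516 FPKM in DSS+DCA and 0.0282 to 0.0474 FPKM in DSS.

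Of the microvillus core and membrane linker genes, 15 were listed. Of 14 tested, 11 had lower and 3 higher fitted values, none was called, and the median was -0.54. Wholly below DSS lay 6 of the 14, against 17.8% of all tested genes, and wholly above it lay 1, Cobl, with 4.44, 3.77 and 3.14 FPKM in the DSS+DCA libraries and 2.38, 0.403 and 2.63 FPKM in the DSS libraries. Baiap2l1, which bends membrane around actin at the microvillus, measured 28.6, 19.8 and 21.1 FPKM in the DSS+DCA libraries and 53.3, 40.4 and 48.9 FPKM in the DSS libraries. Its groups did not overlap and its log2 change was -1.01 ± 0.21 (SE, adjusted p = 0.110, limma). Eps8, an actin regulator of microvillus tips, measured 8.33, 7.93 and 6.51 FPKM in the DSS+DCA libraries and 16.2, 11.8 and 14.6 FPKM in the DSS libraries, with no overlap (adjusted p = 0.126, limma). The membrane motor Myo1d averaged 19.4 ± 6.26 in DSS+DCA and 30.3 ± 0.850 FPKM in DSS (SD, n = 3 each, adjusted p = 0.250, limma).

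Cytoplasmic partners tie Cdhr2 and Cdhr5 to the actin core. All 4 had lower fitted values, with a median of -0.30, and none was called. The motor Myo7b had a log2 change of -0.43 ± 0.18, the scaffold Anks4b of -0.27 ± 0.22 and the light chain Calml4 of -0.33 ± 0.28 (SE, adjusted p = 0.298, 0.556 and 0.576, limma). Each of these turned higher after rescaling to nuclear protein-coding genes and with epithelial scaling. Whether they changed less than Cdhr2 and Cdhr5 was not tested.

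**Figure D4:**
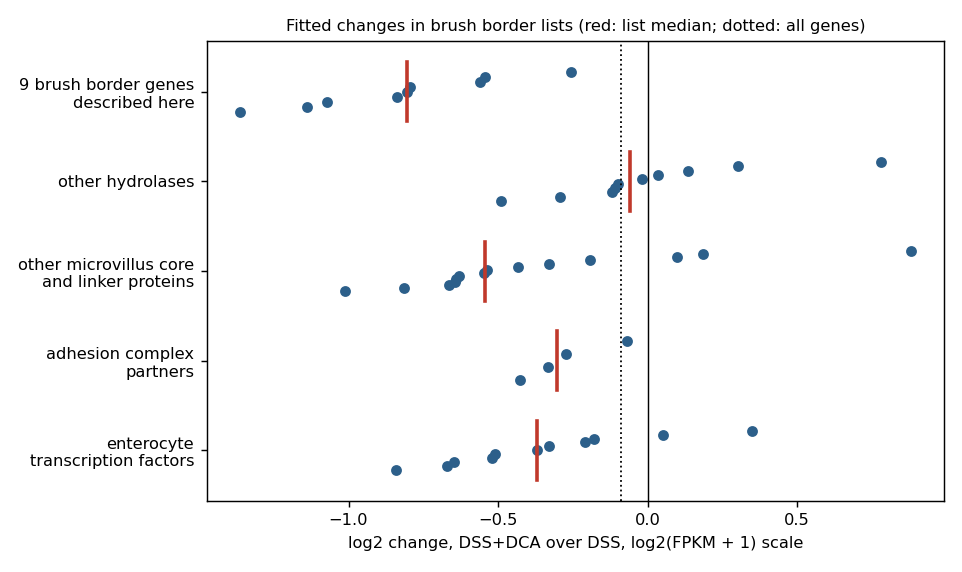
Fitted log2 changes, DSS+DCA over DSS, on the log2(FPKM + 1) scale, of the 9 brush border genes and the other brush border lists, 1 point per tested gene, with the list median in red and the median of all tested genes dotted. Medians run from -0.80 for the 9 genes to -0.06 for the other hydrolases.

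Transcription factors that direct the absorptive programme had 9 of 11 members with lower fitted values, none called and a median of -0.37. Hnf4a, the receptor whose letters were searched in the promoters, measured 101.2, 85.6 and 78.0 FPKM in the DSS+DCA libraries and 145.0, 133.9 and 142.3 FPKM in the DSS libraries. The groups did not overlap (log2 change -0.67 ± 0.19 SE, adjusted p = 0.170, limma). Cdx1, a homeobox factor of intestinal identity, averaged 124 ± 29.5 in DSS+DCA and 219 ± 11.1 FPKM in DSS (SD, n = 3 each, adjusted p = 0.162, limma). Elf3, an epithelial factor, averaged 274 ± 45.6 in DSS+DCA and 427 ± 43.7 FPKM in DSS (SD, n = 3 each, adjusted p = 0.222, limma). Of the 11, 6 lay wholly below DSS, against 17.8% of all tested genes, and 1, Hnf4g, wholly above it. Hnf4g measured 1.41, 1.00 and 1.09 FPKM in the DSS+DCA libraries and 0.691, 0.706 and 0.697 FPKM in the DSS libraries (adjusted p = 0.296, limma). Cdx2, the other factor with a higher fitted value, had a log2 change of 0.05 (adjusted p = 0.937, limma). With epithelial scaling the log2 change of Hnf4a was -0.0066.

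Relatives of the 9 genes did not share their pattern throughout. Among meprin and dipeptidyl peptidase relatives, Dpp8, a cytosolic dipeptidyl peptidase, had a fitted difference of 0.81 ± 0.22 log2 units (SE, adjusted p = 0.162, limma), while Fap had -0.34 and Dpp9 -0.33. In the villin and plastin family, the villin-like gene Vill had a log2 change of -0.42, the microvillus bundler Pls1 of -0.64 and the leukocyte plastin Lcp1 of 0.41 (adjusted p = 0.301, 0.317 and 0.506, limma).

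Nfkbia, Bet1, Tm9sf4 and Tmprss4 were among the 5 genes whose pattern over the 6 libraries lay nearest to the mean pattern of the 9, out of 5331 protein-coding genes averaging 5 FPKM or more. Likeness was the root-mean-square difference between centred log2 profiles, which was 0.0422 log2 units for Nfkbia and 0.0604 for Tmprss4, with a median of 0.373 over all candidates. Among the 9 themselves Vil1 was nearest, at 0.109, and Mep1a farthest, at 0.629. The mean pattern is itself lower in every DSS+DCA library, so the choice fixes that these genes are too. Nfkbia, an inhibitor of NF-κB, measured 35.7, 25.6 and 24.9 FPKM in the DSS+DCA libraries and 46.8, 49.5 and 48.9 FPKM in the DSS libraries.

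**Figure D5:**
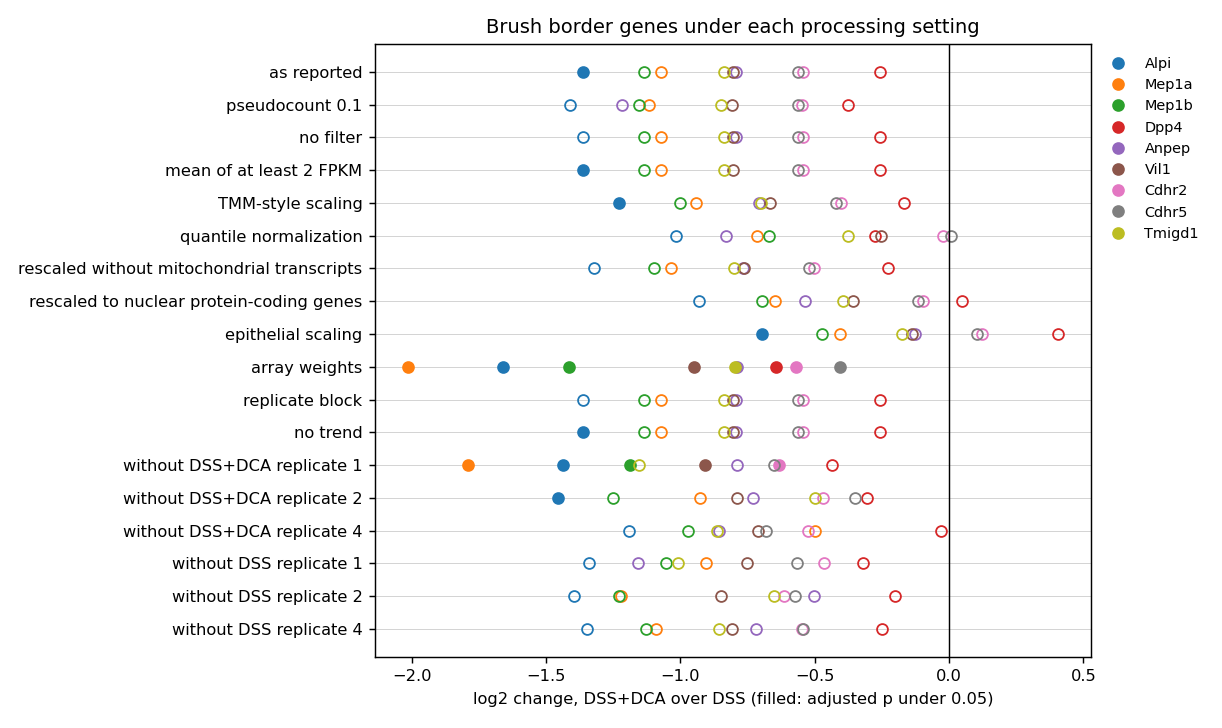
Log2 change of each brush border gene, DSS+DCA over DSS, as reported and under each processing setting, filled where the adjusted p was under 0.05. Alpi is the lowest of the 9 in every setting shown except array weights and without DSS+DCA replicate 1, where Mep1a is lower, and all 9 genes are filled with array weights.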

How the data were processed

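Poly(A) RNA of colonic tissue was made into libraries that keep strand and sequenced in pairs, per the labels' protocols. The submitters' processing notes name StringTie 2.1.6, HISAT2 2.2.1, cutadapt 1.9, edgeR and DESeq2 without their roles. The deposited levels are FPKM by gene, per the file headers, and no scaling across libraries is stated. The authors also deposited the ratio of DSS+DCA to DSS, its log2, and p-values and q-values, per the file headers. Whole reads could not be recovered: at the best total found for each library, 40.6% to 44.8% of low values lay within 0.05 of a whole number. The depth is therefore unknown, and no count test was run.

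The 14611 genes averaging 0.5 FPKM or more were tested on log2(FPKM + 1) in R 4.3.3 by limma 3.58.1 (eBayes with its trend option), two-sided, with no covariate. Adjustment was by Benjamini-Hochberg over all of them, and the 9 brush border genes were among them. Log2 changes understate the change of low genes. Folds are ratios of mean FPKM. The 9 genes and all lists were chosen with earlier results of these data known.

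Named genes were the 9, the 3 of smallest p in each further list (or those called), and the 5 most alike in profile, 1 of which is not reported here. Akp3 was not analysed here. The settings tried in turn were a smaller pseudocount (0.1), other filters (none, or an average of 2 FPKM), TMM-style and quantile scaling, rescaling without mitochondrial transcripts, to nuclear protein-coding genes or to epithelial markers, array weights, no trend, a replicate block, an adjusted p under 0.1, and each library left out.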

Additional observations from a re-analysis of the deposited data

How the results depend on the processing

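With 1 of the 9 brush border genes called as reported, the count was 0 with a pseudocount of 0.1, no filter, quantile normalization, rescaling without mitochondrial transcripts or to nuclear protein-coding genes, and with the replicate block. It was 2 at an adjusted p under 0.1, 9 with array weights, and 0 to 5 when 1 library was left out. The count over all genes, 82 as reported, was 2 with no filter, 132 with TMM-style scaling, 4545 with epithelial scaling, 6227 with array weights, 1 with the replicate block, 230 at an adjusted p under 0.1, and 0 to 1321 when 1 library was left out (0 without DSS replicate 1 or 4, 11 without DSS+DCA replicate 4, 16 without DSS replicate 2, 177 without DSS+DCA replicate 2). With 0 calls, 1498 and 1407 genes had an unadjusted p under 0.05 in limma. Other brush border genes, 0 called of 47 as reported (14 at an unadjusted p under 0.05 in limma), came to 11 with epithelial scaling, all higher, 25 with array weights, and 0 to 9 when 1 library was left out, the 9 without DSS+DCA replicate 1. The median of the 9 genes was -0.38 with quantile normalization, -0.40 after rescaling to nuclear protein-coding genes and -0.14 with epithelial scaling, and -0.91 to -0.65 when 1 library was left out. The median of all genes moved to 0.23 after rescaling to nuclear protein-coding genes and to 0.57 with epithelial scaling. Relative to it, the median of the 9 genes was -0.71 as reported, -0.36 with quantile normalization and -0.63 rescaled to nuclear protein-coding genes. With epithelial scaling it was -0.71 again, as it had to be, since that scaling shifts all genes of a library by the same amount. The cause of these shifts was not tested.

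Signs turned to higher with quantile normalization for Cdhr5 (0.0067) and Anks4b (0.088). After rescaling to nuclear protein-coding genes they turned for Dpp4 (0.049), Myo7b (0.0046), Anks4b (0.16), Calml4 (0.087) and Dpp9 (0.053). With epithelial scaling they turned for Dpp4 (0.41), Cdhr2 (0.12), Cdhr5 (0.10), Naaladl1 (0.18), Myo1d (0.0013), Myo7b (0.24), Anks4b (0.39), Calml4 (0.33), Elf3 (0.018), Fap (0.33), Dpp9 (0.33), Vill (0.25) and Pls1 (0.021). Of the named genes as defined above, no other changed sign. Anpep was not tested with an average of at least 2 FPKM. No label says that the shared numbers pair the libraries. The deviations of same-numbered libraries correlated at -0.144, -0.17 and 0.0153 across 14611 genes, and those of differently numbered ones at -0.105 to 0.209. With 3 libraries a group, and DSS replicate 4 near the mean of the other DSS libraries, these correlations cannot decide whether the libraries are paired. Alpi had an adjusted p = 0.224 in limma with the replicate block. With 3 libraries a group and unknown depth, changes near those of Cdhr2 and Cdhr5 could not be told from library spread.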

Other observations

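The gene ontology terms in the deposited table name further apical proteins, which were looked at after the values had been seen. The column is incomplete, since its term brush border lists 1 of the 9 genes, Cdhr2. Of the 40 other tested genes under that term, 32 had lower and 8 higher fitted values, the median being -0.33 log2 units. Under brush border membrane 21 of 30 were lower (median -0.37), and under microvillus 27 of 41 (median -0.19). Of all tested genes 60.5% had lower fitted values and 0.561% were called. Under microvillus 0 genes were called, and under each of the other terms just named 1, the same gene. This was Slc34a2, a sodium and phosphate cotransporter, which measured 0.293, 0.142 and 0.278 FPKM in the DSS+DCA libraries and 2.97, 2.23 and 2.42 FPKM in the DSS libraries. It fell by 1.51 ± 0.16 on the log2(FPKM + 1) scale (SE, adjusted p = 0.0266, limma), and it is low in all 6 libraries. Its DSS+DCA values lie under the filter of 0.5 FPKM, so it was tested only through its DSS values and had to differ to be tested.

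Apical ion transporters are given by their values. They were picked, after the values had been seen, from genes with low p-values under the terms above, and not every such transporter is given. Slc9a3, the sodium and proton exchanger that takes up salt, measured 12.3, 16.9 and 2.98 FPKM in the DSS+DCA libraries and 47.4, 23.0 and 43.8 FPKM in the DSS libraries (adjusted p = 0.186, limma). Slc26a3, the chloride and bicarbonate exchanger, measured 9.68, 11.0 and 32.6 FPKM in the DSS+DCA libraries and 68.4, 35.4 and 53.6 FPKM in the DSS libraries (adjusted p = 0.174, limma). Neither pair of groups overlapped and neither passed. Among all tested genes 17.8% had non-overlapping groups in that direction, and the way these genes were picked favours such groups. Slc26a3 is also 1 of the 7 colonocyte markers given above. The iron importer Slc11a2 differed in the other direction, at 9.65, 11.8 and 3.74 FPKM in the DSS+DCA libraries and 2.06 to 2.35 FPKM in the DSS libraries (log2 change 1.45 ± 0.36 SE, adjusted p = 0.143, limma).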
